A study of Homo sapiens with 6 samples.

Results

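The HOXB cluster is a row of 10 homeobox genes on human chromosome 17, and all 10 (HOXB1 to HOXB9 and HOXB13) were represented on the array by the 12 probes annotated to their symbols, out of 48803 probes in all. They were measured in HEK293 cells, an established line made from human embryonic kidney cells transformed with adenovirus DNA. In the treated group (tRA and cAMP, 3 samples) the cells were grown for 3 days with all-trans retinoic acid (tRA), a vitamin A derivative that activates nuclear receptors, and dibutyryl-cAMP, a cell-permeant form of the second messenger cAMP. In the control group (3 samples) the same line was grown for 3 days in complete medium alone. The agents were given together, so the share of each in a difference cannot be told apart. A higher or lower RNA level per cell cannot be told apart from more or fewer expressing cells. The labels do not state whether each sample was a culture of its own, and the p-values cover only the spread among these samples, part of which may be technical.

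HOX genes encode transcription factors that give cells their position along the head-to-tail axis. Their order on the chromosome matches the order of their expression domains: low-numbered genes act in the hindbrain and high-numbered genes further towards the tail. Retinoic acid is a classical activator of the low-numbered end in embryos and in teratocarcinoma cells, where receptors bound to response elements next to the genes switch them on while Polycomb repression is lifted.

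Between 14792 and 16103 probes per array were detected, meaning that the probe's signal exceeded that of the negative control beads at a detection p under 0.01, and the median raw signal of an array lay between 228.9 and 271.1. The array names in the file headers share 1 number, with letters A to C for control and D to F for treated samples. Read as a chip and its positions, all arrays lay on 1 chip, and position and treatment cannot be told apart. The labels do not name a chip or a position. Of 7 markers of HEK293 cells, 5 were detected on every array, and PAX2 and SALL1 on none. Of these 5, EYA1 fell by 1.05 on the log2 scale (limma, adjusted p = 0.0085) and 4 were not called, among them VIM at -0.50 (adjusted p = 0.056). Among all tested genes 1.11% were called higher and 1.46% lower, and the marker counts are given as a description. The summed raw signal of the 7 markers was 32372 to 39877 on treated arrays and 48398 to 55066 on control arrays, without overlap. That sum mostly follows VIM, the brightest of them by far (log2 level 14.82 with tRA and cAMP and 15.32 in control). The next brightest, KRT8, was at 12.31 and 12.05. KRT8 differed by 0.26, NEFL by -0.14 and KRT18 by -0.02 (limma, adjusted p = 0.37, 0.76 and 0.99). Of 3 tested fibroblast markers, LUM fell by 1.56 on the log2 scale (limma, adjusted p = 8.8e-04), while COL1A1 differed by -0.15 and PDGFRA by 0.11 (adjusted p = 0.76 and 0.83). The endothelial marker VWF fell by 1.52 (limma, adjusted p = 0.0045). LUM and VWF were each detected on 1 treated array and 3 control arrays, and with no background correction they fell by 0.93 and 0.85. The summed raw signal of 4 fibroblast markers was 1590 to 1921 on treated arrays and 1880 to 2488 on control arrays. That of 4 endothelial markers was 951 to 1336 on treated and 1421 to 1505 on control arrays, and that of 3 blood cell markers 875 to 965 on treated and 796 to 988 on control arrays. DCN, CDH5, KDR, PTPRC and CD3E were detected on 0 arrays. The sums were not tested, nor was the part of these marker differences in the HOXB values.

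Sequence from the cluster is shown for orientation, because it lies at or between the genes that are described next. The RefSeq promoter table (GRCh38.p14, 250 bases before to 50 after each start) matched 1 of the 10 genes, HOXB1. It also held the antisense transcripts HOXB-AS1 to HOXB-AS4. Shown are the windows of HOXB1 and of HOXB-AS1, the latter lying inside HOXB2. Capitals mark matches on either strand to a retinoid receptor half-site (AGGTCA or AGTTCA or GGGTCA or GGTTCA), to the half-site of the cAMP response element (TGACG) and to a PBX-HOX motif (TGATNNAT). The marked matches do not overlap each other.
HOXB1, chr17:48530962-48531261, minus strand: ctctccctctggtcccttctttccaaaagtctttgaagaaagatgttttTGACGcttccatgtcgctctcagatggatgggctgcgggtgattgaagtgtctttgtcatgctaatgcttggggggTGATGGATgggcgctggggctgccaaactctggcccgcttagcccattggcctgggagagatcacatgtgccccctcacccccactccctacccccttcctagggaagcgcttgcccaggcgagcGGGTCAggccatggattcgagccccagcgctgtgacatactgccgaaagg
HOXB-AS1, chr17:48544101-48544400, plus strand: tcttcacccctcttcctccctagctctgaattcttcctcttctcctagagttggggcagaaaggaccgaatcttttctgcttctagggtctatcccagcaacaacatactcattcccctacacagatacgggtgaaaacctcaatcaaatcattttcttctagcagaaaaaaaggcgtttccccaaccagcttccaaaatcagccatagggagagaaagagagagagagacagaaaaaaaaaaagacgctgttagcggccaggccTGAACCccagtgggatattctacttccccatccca

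The HOXB1 window held 1 retinoid half-site, 1 half-site of the cAMP response element and 1 PBX-HOX motif, and the HOXB-AS1 window held 1 retinoid half-site. Among the windows not shown, those of HOXB-AS2 and of HOXB-AS3, which overlaps HOXB6, held 0 retinoid half-sites. HOXB-AS4 held 0 in the window starting at base 48628448 and 1 in that starting at 48629271. Of 34943 RefSeq windows of this length, 38.6% held a retinoid half-site, 24.5% the cAMP half-site and 7.42% the PBX-HOX motif. Neither shown window held the full cAMP response element TGACGTCA, found in 1.84% of the windows, or 2 half-sites in direct repeat with a spacing of 2 or 5 bases (0.0372% and 0.0887% of the windows). These matches describe letters and are not evidence of binding. The RefSeq table places 3 microRNA genes within the cluster: MIR10A between HOXB4 and HOXB5, MIR196A1 between HOXB9 and HOXB13, and MIR3185 next to HOXB13. The main mature products of MIR10A and MIR196A1 are shown with the seed, bases 2 to 8, in capitals, since miR-196a is known to cleave the messenger RNA of HOXB8, one of the genes that rose. No probe on this array was annotated to any of the 3.
hsa-miR-10a-5p, chr17:48579904-48579926, minus strand: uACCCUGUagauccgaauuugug
hsa-miR-196a-5p, chr17:48632532-48632553, minus strand: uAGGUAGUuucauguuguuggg

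The comparison asked which HOXB genes differed after 3 days with the agents. HOXB2, HOXB5, HOXB6 and HOXB8 rose by 2.01-fold to 2.78-fold, and 0 HOXB genes fell. HOXB4, HOXB7 and HOXB13 were measured and did not pass the test, and HOXB1, HOXB3 and HOXB9 were too dim to be tested. A gene was tested where a probe was detected on all 3 arrays of at least 1 group, and called at a Benjamini-Hochberg adjusted p under 0.05 in limma over all 9944 tested genes. So 7 of the 10 genes were tested and 4 were called higher, while 1.11% of all tested genes were called higher and 1.46% lower. The median log2 difference, tRA and cAMP minus control, was 1.01 over the 7 tested HOXB genes and 0.00184 over all tested genes. Raw signals below are average bead signals as deposited, and levels on the log2 scale are after background correction and quantile normalization. Levels of different probes are not comparable, so genes are compared by their differences.

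**Figure D1:**
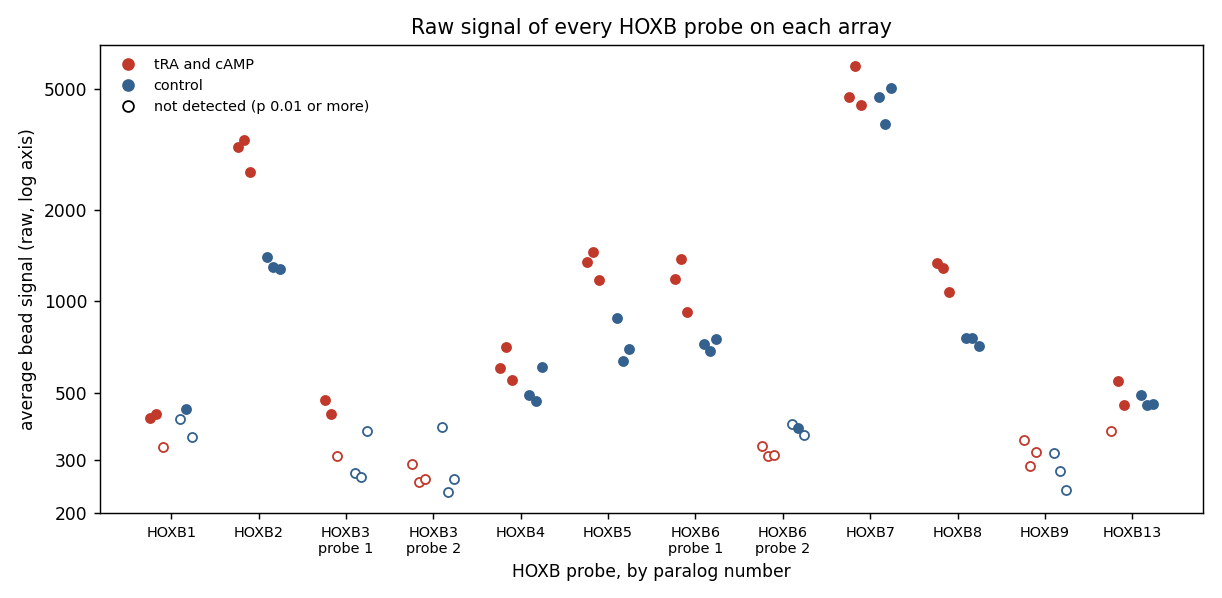
Raw average bead signal (log axis) of each of the 12 HOXB probes on the 3 treated and 3 control arrays, 1 point per array, with open points where the probe was not detected. Treated and control points of HOXB2, HOXB5, HOXB8 and the first HOXB6 probe do not overlap, with treated higher. Those of the second HOXB6 probe do not overlap either, with control higher. Points of HOXB7 lie among each other, and both HOXB3 probes, the second HOXB6 probe and HOXB9 lie near the floor of the array.

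At the low-numbered end, HOXB1, which sets the identity of a single hindbrain segment and is an early target of retinoic acid in embryos, stayed at the detection limit. Its probe read 412, 424 and 332 on the treated arrays, against 411, 442 and 358 on the control arrays. It was detected on 2 treated arrays and 1 control array, the groups overlapped, and with no filter on dim probes the log2 difference was 0.09 (limma, adjusted p = 0.92).

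HOXB2, a hindbrain gene needed for facial motor neurons in mice, showed the largest increase of the cluster. Its raw signal was 3224, 3411 and 2666 on the treated arrays, against 1396, 1301 and 1281 on the control arrays. The lowest treated array lay above the highest control array. The log2 level was 11.55 ± 0.01 with tRA and cAMP and 10.08 ± 0.10 in control (SD, n = 3 each), a 2.78-fold increase with a 95% interval of 2.33 to 3.31 (limma, adjusted p = 6.7e-05). By size of the difference it was number 15 of the 110 genes called higher.

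HOXB3, another hindbrain gene, had 2 probes. The first read 473, 426 and 310 on the treated arrays and 271, 264 and 373 on the control arrays. It was detected on 2 treated arrays and 0 control arrays, but the groups overlapped, because control replicate 3 lay above treated replicate 3. Against the detection floor of the control arrays the ratio of group means had a lower bound of 1.14-fold, or 1.07-fold with the background left in. That bound takes no account of the spread among arrays, and treated replicate 3, part of the treated mean, was itself not detected. With no filter the log2 difference was 1.11 (limma, adjusted p = 0.29), and without treated replicate 3, where the gene entered the test, it was 1.34 (adjusted p = 0.11). The second probe, designed on another transcript record (AK000839), was detected on 0 arrays. It read 290, 253 and 259 on the treated arrays and 384, 236 and 259 on the control arrays.

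HOXB4, best known for expanding blood stem cells when overexpressed, was detected on all arrays and its increase missed the threshold. Raw signals were 604, 708 and 549 on the treated arrays and 490, 467 and 606 on the control arrays, which overlapped. After normalization the groups did not overlap, at log2 levels of 8.66, 8.90 and 8.82 with treatment and 7.89, 8.15 and 8.61 in control. The log2 difference was 0.58 with a standard error of 0.18 and a 95% interval of 0.19 to 0.97 (limma, adjusted p = 0.15). Control replicate 3 was the brightest control array for this probe, and without it the difference was 0.77 and passed the threshold (limma, adjusted p = 0.036).

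The middle of the cluster held 3 of the 4 called genes. HOXB5, which takes part in lung branching and in the enteric nervous system, read 1342, 1448 and 1174 on the treated arrays, against 883, 633 and 695 on the control arrays. Every treated array lay above every control array. Its log2 level was 10.20 ± 0.06 with tRA and cAMP and 8.97 ± 0.19 in control (SD, n = 3 each), a 2.34-fold increase with a 95% interval of 1.92 to 2.85 (limma, adjusted p = 6.2e-04). HOXB5 was number 23 among the 110 higher genes.

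HOXB6, expressed in lateral mesoderm and in early blood progenitors, had 2 probes that read very different signals. The brighter one was 1186, 1372 and 918 on the treated arrays, against 723, 683 and 751 on the control arrays, without overlap. By this probe the log2 level was 9.95 ± 0.14 with tRA and cAMP and 8.94 ± 0.15 in control (SD, n = 3 each), a 2.01-fold increase with a 95% interval of 1.64 to 2.46 (limma, adjusted p = 0.0022). The other probe, annotated to the same transcript record (NM_018952), was detected on 0 treated arrays and 1 control array. It read 333, 309 and 312 with treatment and 393, 382 and 362 in control, without overlap in the opposite direction, at a level near the floor. At a detection p under 0.05 it was detected on all arrays. Its normalized log2 levels overlapped between the groups (7.01 ± 0.27 with tRA and cAMP and 7.37 ± 0.18 in control, SD, n = 3 each), and it was not tested. The call of HOXB6 therefore rests on 1 of its 2 probes.

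HOXB7, found highly expressed in many carcinomas, gave a raw signal of 4694, 5947 and 4444 on the treated arrays and 4720, 3837 and 5060 on the control arrays, and the groups overlapped. The log2 level was 12.27 ± 0.13 with tRA and cAMP and 12.03 ± 0.18 in control (SD, n = 3 each). The log2 difference of 0.25 had a 95% interval of -0.05 to 0.55 (limma, adjusted p = 0.46), so increases up to 1.46-fold lie within the interval. HOXB7 lies between HOXB6 and HOXB8, both of which rose, and its interval lies below theirs on the log2 scale (0.71 to 1.30 for HOXB6 and 0.79 to 1.36 for HOXB8). The contrast between these genes was not itself tested.

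HOXB8, which keeps early myeloid progenitors dividing and in mice affects grooming behaviour, read 1334, 1290 and 1075 on the treated arrays, against 754, 759 and 710 on the control arrays. The groups did not overlap. Its log2 level was 10.07 ± 0.08 with tRA and cAMP and 9.00 ± 0.18 in control (SD, n = 3 each), a 2.11-fold increase with a 95% interval of 1.72 to 2.57 (limma, adjusted p = 0.0014). HOXB8 and HOXB6 were numbers 31 and 36 among the 110 higher genes.

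At the high-numbered end, HOXB9, which patterns the thoracic region in mice, was detected on 0 arrays at a detection p under 0.01. Its probe read 348, 286 and 317 on the treated arrays and 317, 276 and 239 on the control arrays, with overlap, and with no filter the log2 difference was 0.70 (limma, adjusted p = 0.37). HOXB13, a gene of the prostate and the tail end of the spine, stands apart from the rest of the cluster on the chromosome. Its probe read 374, 545 and 454 with treatment and 492, 455 and 459 in control, and treated replicate 1 was the array where it was not detected. The log2 difference was 0.08 with a 95% interval of -0.42 to 0.58 (limma, adjusted p = 0.92). Its sign turned without treated replicate 2 (-0.07), without treated replicate 3 (-0.09) and with no normalization between arrays (-0.06), and without treated replicate 1 the difference was 0.39 (adjusted p = 0.25).

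In all, 5 of the 7 tested genes had treated log2 levels above all control levels (the 4 called genes and HOXB4), against 9.2% of all tested genes. An unadjusted p under 0.05 in limma was reached by the same number, 5 of 7, against 14.2% of all tested genes. Along the cluster, the log2 differences in order of paralog number were 1.47 for HOXB2, 0.58 for HOXB4, 1.23 for HOXB5, 1.01 for HOXB6, 0.25 for HOXB7, 1.07 for HOXB8 and 0.08 for HOXB13. The Spearman correlation of paralog number with the difference was -0.64 over these 7 genes. They share the same 6 arrays, and the value is given as a description. It leaves out HOXB1, HOXB3 and HOXB9, too dim to be tested, whose differences with no filter were 0.09, 1.11 and 0.70. HOXB1, the lowest-numbered gene, thus lay near HOXB13, so the value depends on which dim genes were left out. The order was uneven: HOXB4 lay below HOXB5 and HOXB6, and HOXB7 below HOXB8.

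The neighbourhood of the cluster was examined in the gene order of the RefSeq table (GRCh38). Of the 8 protein-coding genes on each side and the other named genes inside the cluster, 30 in all, 18 had a probe and 10 were tested. None of these 10 was called in either direction by limma, and 1 had an unadjusted p under 0.05. That gene was PRR15L, with a log2 difference of -0.36 (adjusted p = 0.26). Their median log2 difference was 0.01. For all tested genes the shares were 1.11% called higher, 1.46% called lower and 14.2% at an unadjusted p under 0.05 in limma. On the HOXB1 side, the nearest tested neighbours were SNX11, a sorting nexin, at 0.08 and CBX1, a heterochromatin protein, at 0.03. On the HOXB13 side, the autophagy receptor gene CALCOCO2 differed by -0.01. SKAP1, next to HOXB1, was not tested, nor were PRAC1 and PRAC2 next to HOXB13. The antisense transcripts HOXB-AS1 to HOXB-AS4 had no annotated probe.

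**Figure D2:**
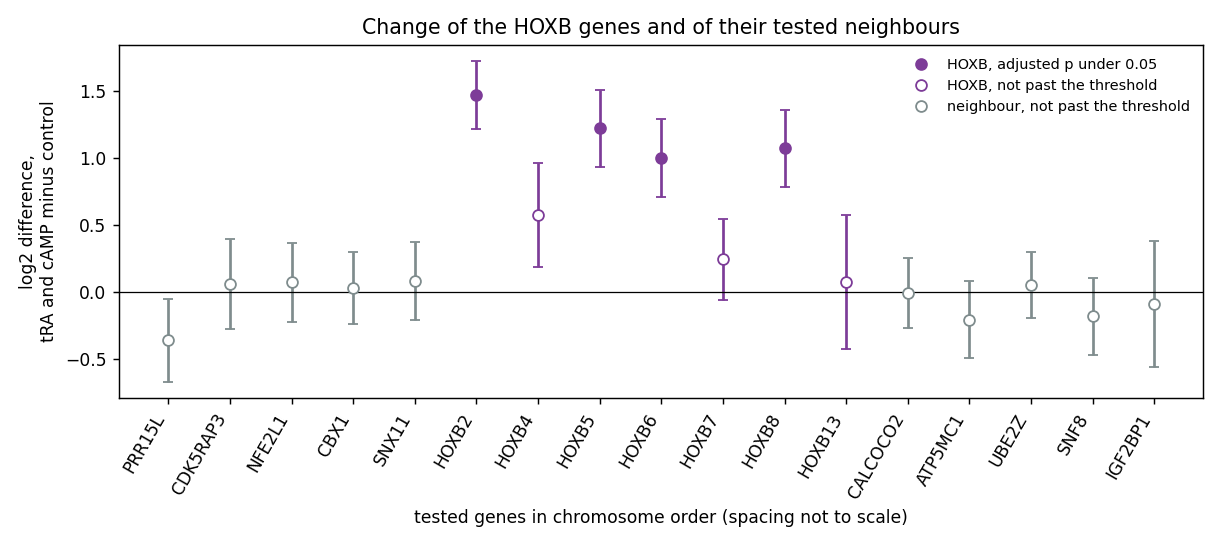
Log2 difference (tRA and cAMP minus control) with its 95% interval for the tested HOXB genes and the tested genes on each side, in chromosome order with equal spacing. Filled points passed the threshold. HOXB2, HOXB5, HOXB6 and HOXB8 stand between 1.01 and 1.47, and the 10 neighbours lie between -0.36 and 0.08.

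Paralogs of the called genes in the other HOX clusters went as follows. HOXA2, the paralog of HOXB2 and likewise a hindbrain gene, rose 2.28-fold (95% interval 1.81 to 2.89; limma, adjusted p = 0.0020), and other HOXA genes were not analysed here. HOXC6 differed by 0.35 on the log2 scale (adjusted p = 0.18), against 1.01 for HOXB6. HOXC8 differed by 0.07 and HOXD8 by -0.07 (adjusted p = 0.92 for both), against 1.07 for HOXB8, and HOXC5 was detected on 0 arrays. Among the paralogs of HOXB4, HOXC4 differed by 0.35 and HOXD4 by 0.22, and HOXC13 and HOXD13 differed by 0.16 and 0.11, against 0.08 for HOXB13. By cluster, 0 of 6 tested HOXC genes were called, with a median log2 difference of 0.22 and 4 genes at an unadjusted p under 0.05, of which HOXC4, HOXC6 and HOXC9 had positive differences and HOXC11 a negative one (-0.43). In the HOXD cluster 0 of 8 tested genes were called, with a median of 0.02 and 0 genes at an unadjusted p under 0.05 in limma. Among all tested genes 1.11% were called higher and 1.46% lower, and 14.2% had an unadjusted p under 0.05. Whether the clusters differ from each other was not tested.

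**Figure D3:**
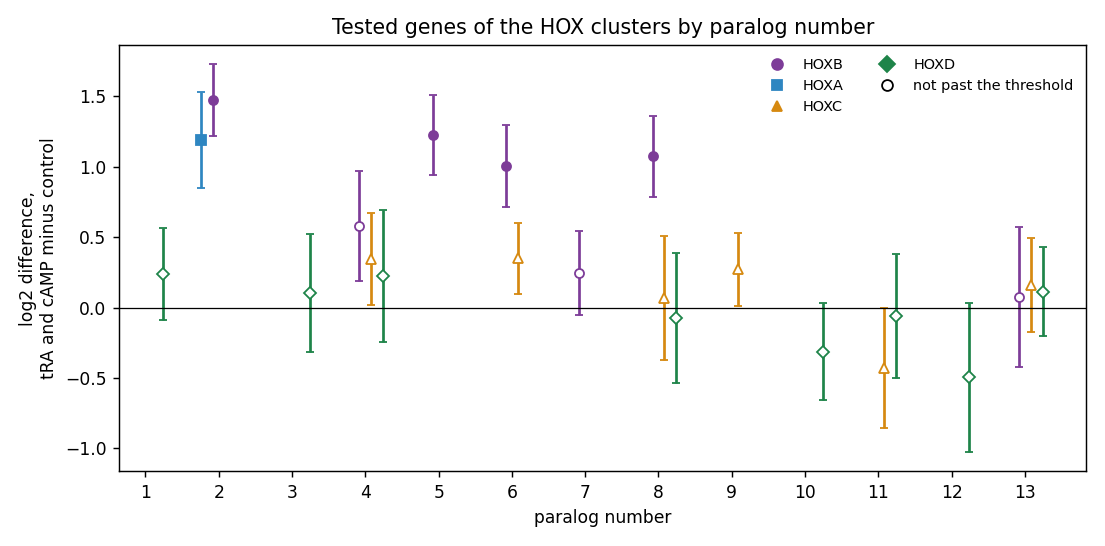
Log2 difference (tRA and cAMP minus control) with its 95% interval for every tested HOX gene, by paralog number and cluster, filled where the threshold was passed. The filled points are HOXA2, HOXB2, HOXB5, HOXB6 and HOXB8, and the tested HOXC and HOXD genes lie between -0.49 and 0.35.

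Genes that act on HOXB genes, with HOXB proteins or on retinoic acid were described from lists of regulators and partners. Calls made up 1.11% (higher) and 1.46% (lower) of all tested genes. Among 4 tested retinoid receptors, RARB, itself a retinoic acid target, rose 3.89-fold (limma, adjusted p = 5.8e-05), while RARA differed by 0.50 on the log2 scale (adjusted p = 0.12), and 0 fell. Of 7 tested TALE cofactors, the MEIS, PBX and PKNOX proteins that bind DNA together with HOX proteins, 1 rose and 0 fell: MEIS2 rose 1.60-fold (limma, adjusted p = 0.021). That call was lost in 8 of 16 alternatives (adjusted p of 0.0531 to 0.31), the replicate number as a block among them (0.0564). Of 9 tested hindbrain and axial regulators 3 rose and 0 fell. They were the retinoic acid hydroxylases CYP26A1 (50.6-fold) and CYP26B1 (12.9-fold), which limit the spread of retinoic acid in the embryo, and CDX2, a caudal activator of HOX genes, which rose 1.56-fold (limma, adjusted p = 0.016). With no background correction the difference of CYP26A1 was 4.95 on the log2 scale, against 5.66 with it. CDX2 missed the threshold in 6 of 16 alternatives (0.0534 to 0.267).

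Chromatin regulators of HOX loci gave no calls in limma. Over all tested genes, 1.11% were called higher, 1.46% lower, and 14.2% had an unadjusted p under 0.05. Lists this short can hold 0 calls at those shares, so the counts are given as a description. Of 15 tested Polycomb genes, whose products keep HOX genes silent, 0 were called, with a median log2 difference of 0.03. The histone methyltransferase EZH2 differed by -0.03, and 1 gene of the list, RING1 (0.30), had an unadjusted p under 0.05. Of 9 tested Trithorax and H3K27 demethylase genes, whose products oppose Polycomb, 0 were called, with a median of -0.01. Here 1 gene had an unadjusted p under 0.05, ASH2L (0.32), and the demethylase KDM6A differed by -0.11.

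The tested genes, HOX genes aside, whose log2 levels followed HOXB2 most closely over the 6 arrays were SNCAIP, IGFBP3, CYP26B1, CYP26A1 and CASP9, with Pearson correlations of 0.994 to 0.998. SNCAIP encodes a partner of alpha-synuclein, IGFBP3 a carrier of insulin-like growth factors and CASP9 an initiator caspase. All 5 were called higher, by 1.15 (SNCAIP) to 5.66 (CYP26A1) on the log2 scale. Genes picked for following HOXB2, itself called higher, are likely to be called higher, so this is no separate result. IGFBP3 was detected on 0 control arrays and entered the test through the treated arrays alone. Its fitted difference of 3.70 (2.46 with no background correction) has no measured control level behind it. With 2 groups of 3 arrays such a correlation mostly reflects the step between the groups, and 12 genes had a correlation with HOXB2 above 0.99. Within the cluster, HOXB2 correlated at 0.99 with HOXB8, 0.98 with HOXB6, 0.97 with HOXB5, 0.79 with HOXB4, 0.67 with HOXB7 and 0.13 with HOXB13 over the same arrays.

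**Figure D4:**
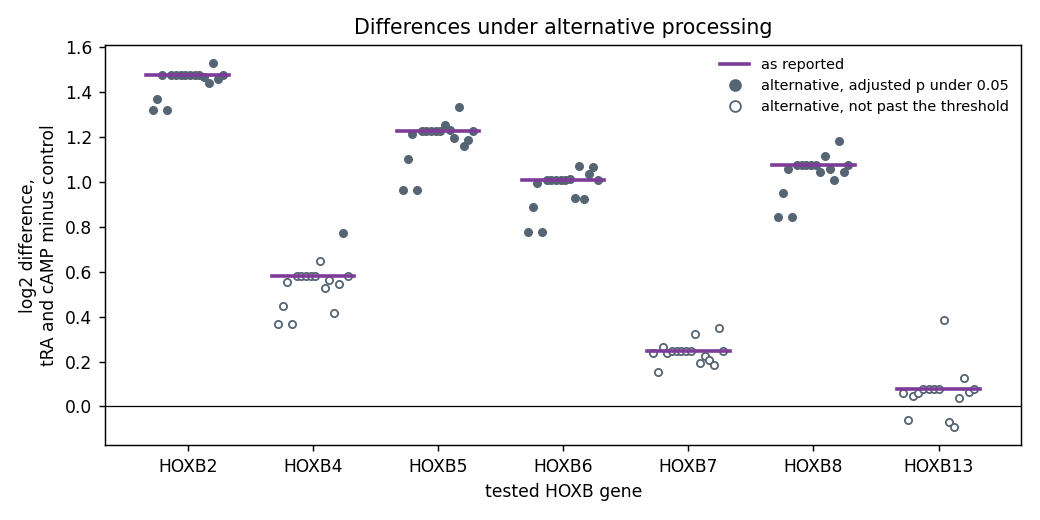
Log2 difference (tRA and cAMP minus control) of each tested HOXB gene as reported (line) and under each alternative processing (points, filled where the adjusted p was under 0.05). HOXB2, HOXB5, HOXB6 and HOXB8 stay filled throughout, at 0.78 or more, while HOXB4 has 1 filled point and HOXB7 and HOXB13 have none.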

How the data were processed

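Biotin-labelled cRNA was hybridized to Illumina bead arrays, per the labels. The authors deposited average bead intensity per probe, with BeadStudio named in the submitters' processing notes, and a detection p-value per the file headers. A second deposited intensity table ranked probes as the raw signals did and shared 1 distribution across arrays. The sources used here do not state how it was made, and it served as an alternative. Groups and replicate numbers came from the sample titles.

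Signals were corrected with normexp (offset 16, controls inferred from the detection p-values) and quantile normalized with limma 3.58.1 in R 4.3.3. The platform annotation gave 28098 of the 48803 probes a single gene name and 13 probes several; 20692 were not listed. The brightest tested probe stood for a gene, and 12887 named probes gave 9944 genes. Differences were fitted with lmFit and eBayes over all 6 arrays without covariates. For HOXB probes only, a probe below detection throughout 1 group got a bound against the lowest detected signal. The pipeline was tested on simulated data. Changes were set only in genes with a probe detected on all 6 arrays, so changes of dim genes were not covered. Members and lists were chosen with earlier results of these data known. Named genes were all HOXB genes, up to 4 called genes per list, paralogs and the 5 genes closest to HOXB2. HOXB2 was taken because an earlier account of these data gave it the largest HOXB change. EYA1, LUM and VWF were called markers. Chosen after their values were seen were VIM, KRT8, KRT18, NEFL, COL1A1, PDGFRA, PRR15L and RARA. So were RING1, EZH2, ASH2L, KDM6A, HOXC9, HOXC11, HOXC13, HOXD13 and the nearest neighbours. Plots used matplotlib 3.10.9. The number of arrays limits the precision.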

Additional observations from a re-analysis of the deposited data

How the results depend on the processing

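In all 16 alternatives of the fit, HOXB2, HOXB5, HOXB6 and HOXB8 were called higher, and 0 HOXB genes were called lower. Their log2 differences ranged from 1.32 to 1.53 (HOXB2), 0.97 to 1.33 (HOXB5), 0.78 to 1.07 (HOXB6) and 0.84 to 1.18 (HOXB8), with the largest adjusted p at 0.031 (HOXB6). The alternatives are not separate checks. No background correction and the second deposited table both called 294 genes, with HOXB2 at 1.32. Changing the filter, probe averaging, variance model or block left the differences of these genes as they were. The count of HOXB genes called was 4, and 5 without control replicate 3, where HOXB4 passed. Over all tested genes, 255 were called (110 higher, 145 lower), against 163 (43 higher, 120 lower) without between-array normalization, 131 (53 higher, 78 lower, of 18852 genes tested) with no filter, and 138 to 196 when 1 array was left out. With no normalization the median of all genes moved to -0.10 on the log2 scale. With the replicate number as a block 4 HOXB genes were called. Deviations of same-numbered samples from their group means were nearly uncorrelated (0.04, -0.04 and -0.04). With 3 samples per group and normalized values, this cannot show whether the samples were paired in culture, which the labels do not state. One alternative, detection on at least 3 of 6 arrays, was chosen after seeing the data. With a detection p under 0.05, 10 HOXB probes would have been tested in place of 7. HOXB1, HOXB3 and HOXB9 are limited by signal over background.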
